A study of Mus musculus with 16 samples.

Results

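The genes described here encode the contractile and metabolic machinery of fast skeletal muscle, read in whole cochleae of male DBA/2J mice. The 10 members are Acta1, Ckm, Myh1, Myh2, Myh4, Mylpf, Tnnt3, Tnnc2, Atp2a1 and Cox6a2, taken by name from 18193 genes on the array, with every probe set that the annotation assigns to 1 of them alone (15 probe sets, 6 genes with 1 and 4 genes with more). The 4 weeks group held 5 mice killed at 4 weeks of age with no injection. The control group held 5 mice killed at 12 weeks of age after 8 weeks of daily subcutaneous vehicle (0.1 M sodium bicarbonate), and the M+V group held 6 mice of that age given L-methionine at 500 mg/kg, a methyl donor, and valproic acid at 300 mg/kg, an inhibitor of histone deacetylases, in the same vehicle. DBA/2J is an inbred strain with progressive hearing loss, which can begin at high frequencies before 4 weeks of age. Every array carried RNA of the left cochlea of 1 mouse on an Affymetrix whole-genome mouse array. Values are log2 signals, so that a difference of 1 is a doubling, and levels are compared only within a probe set. Cochleae are named by group and by the replicate number of their labels, as in control #4.

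Fast fibres are the skeletal muscle fibres that contract quickly and, in most types, draw more on glycolysis than slow fibres do. In the sarcomere, myosin heavy chains pull on actin filaments, the troponin complex on the actin filament opens the binding sites when calcium rises, and a calcium pump of the sarcoplasmic reticulum ends the contraction by taking the calcium back. The cochlea has no skeletal muscle of its own, but a pair of small skeletal muscles, the tensor tympani and the stapedius, lie beside it in the middle ear, and muscles of the neck attach to the surrounding bone.

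All 10 members had their 3 highest values in the same 3 cochleae, 4 weeks #5, control #4 and control #5. The step from the lowest of these 3 arrays to the next array below ran from 0.363 (Cox6a2) to 2.24 (Myh1) on the log2 scale. From the lowest to the highest array, the 10 members ranged over 2.14 (Cox6a2) to 7.99 (Tnnc2) on the log2 scale, but the low end of most was a weak signal whose exact level says little. On log2(signal + 32), which damps weak signals, the ranges were 1.87 (Atp2a1) to 6.10 (Myh1), and that of Tnnc2 was 4.81. The next highest value was that of M+V #4 for 7 of the 10 members. Across the 16 arrays, each member correlated with the mean of the other 9 at Pearson's r between 0.76 (Myh2) and 0.97 (Tnnc2), a description over arrays of which 3 stand far from the rest.

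**Figure D1:**
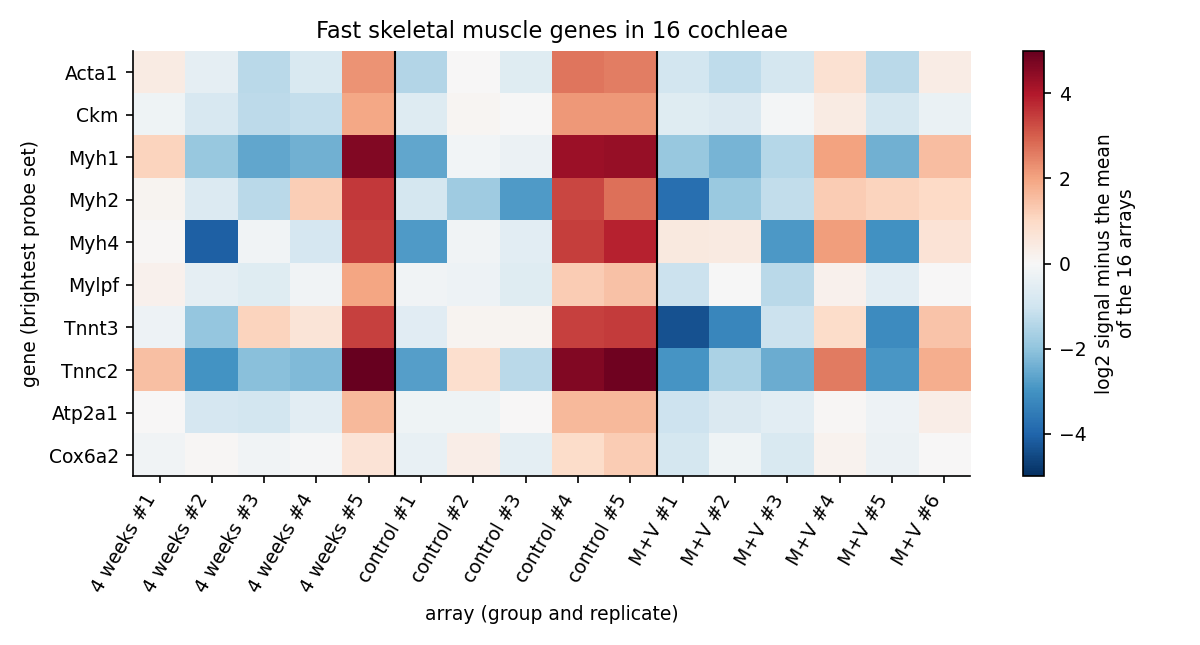
Each cell gives the log2 signal of 1 gene (rows, brightest probe set) in 1 cochlea (columns, by group and replicate) minus the mean of that gene over the 16 arrays, with red above and blue below the mean. The 3 columns 4 weeks #5, control #4 and control #5 are red in all 10 rows.

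The myosin heavy chains are the motor proteins that define the fast fibre types: Myh2 is that of type IIA, Myh1 of type IIX and Myh4 of type IIB. Myh1 was 8.45, 5.45, 4.76, 4.96 and 11.97 in the 5 cochleae at 4 weeks. It was 4.76, 7.19, 7.05, 11.60 and 11.71 in the 5 control cochleae, and 5.45, 5.02, 5.90, 9.36, 4.95 and 8.89 in the 6 M+V cochleae. The groups overlapped, since low cochleae near 5 occurred in every group, and M+V #4 and #6 lay between these and the 3 highest. Myh4 was highest in control #5 (8.76), 4 weeks #5 (8.39) and control #4 (8.36), followed by M+V #4 (7.01), and lowest in 4 weeks #2 (0.82). Myh2 reached 7.29 in 4 weeks #5, 7.07 in control #4 and 6.50 in control #5, against 5.03 in M+V #4, and stood at the floor of the scale (0.00, a signal of 1) in M+V #1.

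Myh1, Myh2 and Myh4 are near-identical paralogs that neighbour each other on chromosome 11, so their probe sets may share signal and the type of myosin is uncertain. Myhas, a transcript antisense to this cluster, has a probe set designed from the same record as one of the Myh1 probe sets. It read 8.91, 8.47 and 8.50 in 4 weeks #5, control #4 and control #5, and 4.06 to 6.40 in the other arrays.

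The thin filament and its switch followed the same arrays. Acta1, skeletal muscle actin, was 7.56, 6.72, 5.80, 6.42 and 9.41 at 4 weeks, 5.69, 7.20, 6.58, 9.85 and 9.73 in control, and 6.24, 5.89, 6.28, 7.92, 5.80 and 7.55 in M+V. Tnnc2, the calcium-binding troponin C of fast fibres, was 6.41, 1.94, 2.84, 2.70 and 9.93 at 4 weeks. It was 2.18, 5.77, 3.59, 9.55 and 9.79 in control, and 1.98, 3.35, 2.45, 7.54, 2.01 and 6.75 in M+V. For both genes M+V #4 came next after the 3, as for Myh1. Tnnt3, the fast troponin T that ties the complex to tropomyosin, was 7.93 in 4 weeks #5, 7.94 in control #4 and 8.02 in control #5, and its lowest values were those of M+V #1 (0.17), M+V #2 (1.26) and M+V #5 (1.39).

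Mylpf, the regulatory light chain of fast myosin, and Cox6a2, the muscle form of a cytochrome c oxidase subunit, were the only members to pass the filter on low values, which asked for a value at or above the array median of 6.90 in every array of at least 1 group. Mylpf was 8.13, 7.45, 7.32, 7.75 and 9.90 at 4 weeks, 7.75, 7.67, 7.29, 9.20 and 9.39 in control, and 6.85, 7.90, 6.55, 8.14, 7.38 and 7.92 in M+V. Cox6a2 was 7.64, 7.90, 7.67, 7.77 and 8.51 at 4 weeks, 7.47, 8.15, 7.35, 8.73 and 9.09 in control, and 6.95, 7.61, 7.05, 7.99, 7.54 and 7.86 in M+V. In both, the difference between the 3 highest cochleae and the others was smaller than in the myosins, and control #2 came next after the 3 for Cox6a2. Ckm, the muscle creatine kinase that buffers ATP, was 8.69, 8.94 and 8.91 in the 3 arrays and at most 7.18 elsewhere. Atp2a1, the calcium pump of the fast sarcoplasmic reticulum, was 7.61, 7.63 and 7.61 there and at most 6.34 elsewhere.

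Of the 15 probe sets, 12 had their 3 highest values in these 3 cochleae. The other 3 were additional probe sets of Ckm, Myh1 and Myh4, each dimmer than the brightest probe set of its gene. The Myh1 set among them ran from 1.02 in 4 weeks #5 to 5.00 in M+V #5 and did not follow the other Myh1 sets. A gene is reported from its brightest probe set.

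The promoters of the members are shown as background on these genes. Whether their motifs bear on the shared pattern across cochleae was not tested. RefSeq (GRCm38.p6) gave the 250 bases before and 50 after the start for 8 of the 10 members, and Tnnt3 and Cox6a2 had no entry. CAGCTG, a form of the E-box CANNTG that myogenic factors such as MyoD bind, was found in 5 of the 8 (Acta1, Ckm, Myh4, Mylpf and Atp2a1) and in 16.3% of 32851 promoters of the same length. The CArG box, bound by serum response factor, was found in 2 of the 8 (Acta1 and Myh4) and in 1.63% of all. TATAAA was found in 4 of the 8 (Acta1, Myh1, Myh2 and Myh4) and in 13.6% of all. Both strands were searched, CAGCTG is its own reverse complement, and no match of 1 motif overlapped another in the members. Capitals mark these matches in an actin, a myosin heavy chain and a light chain, and Tnnc2, the fast troponin C, is shown as a member with none of the motifs in this window.
Acta1, chr8:123894726-123895025, minus strand: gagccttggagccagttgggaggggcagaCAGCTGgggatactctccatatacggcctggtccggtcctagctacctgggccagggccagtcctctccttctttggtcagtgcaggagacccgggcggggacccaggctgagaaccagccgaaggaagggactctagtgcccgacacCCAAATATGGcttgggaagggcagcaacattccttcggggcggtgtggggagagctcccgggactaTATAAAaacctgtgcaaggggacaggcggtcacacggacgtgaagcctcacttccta
Myh4, chr11:67237562-67237861, plus strand: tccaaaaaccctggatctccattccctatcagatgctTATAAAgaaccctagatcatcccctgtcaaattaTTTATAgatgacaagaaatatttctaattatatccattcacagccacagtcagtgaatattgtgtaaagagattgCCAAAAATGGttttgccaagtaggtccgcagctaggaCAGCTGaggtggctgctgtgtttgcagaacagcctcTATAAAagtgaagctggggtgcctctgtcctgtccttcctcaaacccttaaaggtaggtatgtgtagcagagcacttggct
Mylpf, chr7:127211358-127211657, plus strand: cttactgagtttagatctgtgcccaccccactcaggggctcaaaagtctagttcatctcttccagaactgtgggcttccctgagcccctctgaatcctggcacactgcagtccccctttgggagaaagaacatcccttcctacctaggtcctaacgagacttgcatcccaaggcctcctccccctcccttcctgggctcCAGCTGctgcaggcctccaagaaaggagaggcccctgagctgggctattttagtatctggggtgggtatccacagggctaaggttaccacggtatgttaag
Tnnc2, chr2:164779685-164779984, minus strand: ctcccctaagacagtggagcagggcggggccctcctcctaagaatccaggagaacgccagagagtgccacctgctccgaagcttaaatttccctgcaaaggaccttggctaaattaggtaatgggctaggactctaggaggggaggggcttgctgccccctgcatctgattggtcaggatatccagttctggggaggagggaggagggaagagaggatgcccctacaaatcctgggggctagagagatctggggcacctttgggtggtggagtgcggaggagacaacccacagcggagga

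The mean of the 10 members in an array, each taken relative to its 16-array mean, summarises how much fast muscle signal a cochlea carried. This score was 2.85 in 4 weeks #5, 2.84 in control #5 and 2.78 in control #4. After a gap of 1.72 came M+V #4 (1.05), M+V #6 (0.69) and 4 weeks #1 (0.27), and the remaining 10 arrays lay between -0.12 (control #2) and -1.70 (M+V #1). The range of the score was 4.55 on the log2 scale and 2.92 on log2(signal + 32), its low end resting on weak signals such as those of Myh2 and Tnnt3 in M+V #1. In bulk tissue, fewer muscle fibres and less muscle RNA per fibre cannot be told apart.

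The groups held the high cochleae unevenly, with 1 of 5 at 4 weeks, 2 of 5 in control and 0 of 6 in M+V. The score averaged 0.03 ± 1.69 (SD, n = 5) at 4 weeks, 0.72 ± 1.95 (SD, n = 5) in control and -0.62 ± 1.18 (SD, n = 6) in M+V. The lowest, median and highest scores in M+V were -1.70, -1.21 and 1.05. The scores of the 3 groups overlapped.

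Cochleae of the same group differed in these genes by more than in the typical probe set. The SD within groups, pooled over the 3 groups, was 3.08 for Tnnc2, 2.72 for Myh1, 2.53 for Myh4, 2.26 for Myh2 and 2.14 for Tnnt3, and 0.535 for Cox6a2, the steadiest member. The median over the members was 1.78, against 0.382 over all probe sets and 0.222 over those that passed the filter. Of the 10 members, 8 did not pass the filter. On log2(signal + 32) the median over the members fell to 0.959, against 0.253 over all probe sets and 0.204 over those that passed the filter.

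**Figure D2:**
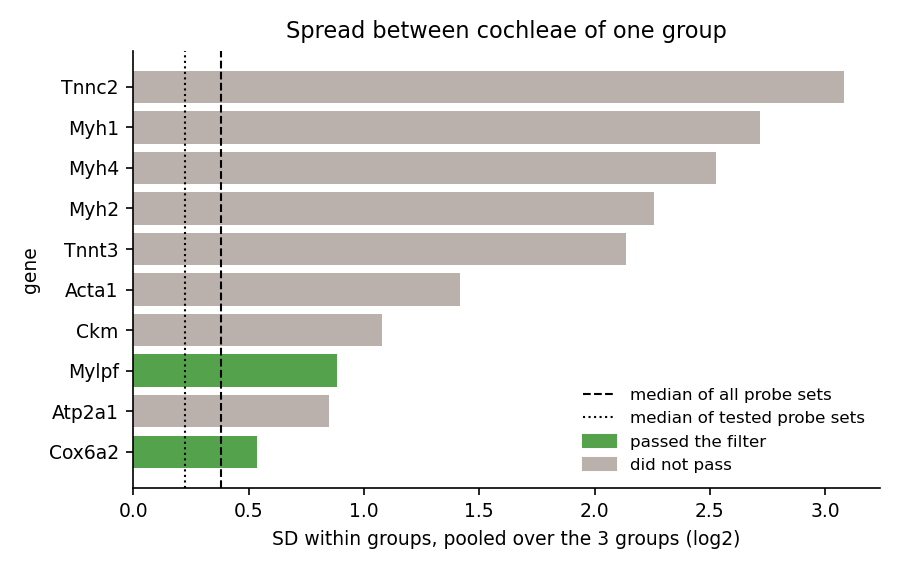
Bars give the SD within groups of the log2 signal, pooled over the 3 groups, for the brightest probe set of each member, in green where it passed the filter on low values and in grey where it did not. Every bar ends beyond both vertical lines, which mark the median SD of all probe sets (0.382) and of the tested ones (0.222).

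To ask whether treatment moved these genes, M+V was compared with control, and both with the cochleae before treatment. With limma over all 16 arrays and Benjamini-Hochberg adjustment at 0.05, 0 of the 10 members were called in M+V against control, where 0% of the 21391 tested probe sets were called. The 8 members that did not pass the filter were read from the fit over all 45037 probe sets, where 0% were called too. At the cutoffs of the study, which asked for more than 1.5-fold and for p under 0.05 without adjustment, 2 members were lower in M+V, 1 among the tested probe sets (background 1.34%) and 1 in the fit without the filter (background 1.97%). No other member had an unadjusted p under 0.05, and the methods' t-test, which does not pool the variance, called 0 members and put 0 past the cutoffs. All 10 fold changes were below 0, from -0.66 (Cox6a2) to -2.90 (Tnnt3), with a median of -1.12 against 0.02 over all genes.

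The 2 members past the study's cutoffs by limma were Cox6a2 and Tnnt3, of which Tnnt3 did not pass the filter. Cox6a2 was 7.50 ± 0.42 (SD, n = 6) in M+V and 8.16 ± 0.76 (SD, n = 5) in control, a log2 fold change of -0.66 with SE 0.29 (limma, adjusted p = 0.490). Tnnt3 was 2.95 ± 2.39 (SD, n = 6) in M+V and 5.84 ± 1.97 (SD, n = 5) in control, a log2 fold change of -2.90 with SE 1.22 (limma without the filter, adjusted p = 0.685). The groups overlapped in both. Mylpf, the other tested member, had a log2 fold change of -0.80 with SE 0.48 (limma, adjusted p = 0.587).

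The size of these differences depended on a few cochleae. With the 3 high cochleae left out, a choice made after seeing the data, the median fold change of the members in M+V against control was 0.003, 5 of the 10 members were above 0 and 0 were past the study's cutoffs. Cox6a2 was then at -0.16 (95% interval -0.65 to 0.34) and Tnnt3 at -1.47 (95% interval -4.14 to 1.20). Myh2 was at 1.26 (95% interval -1.10 to 3.62). Leaving out control #4 alone gave a median of -0.67 and control #5 alone -0.69, with 0 members past the cutoffs each time. The count was also 0 without M+V #1 or M+V #5, 1 without M+V #2 or M+V #3, 4 without 4 weeks #5 and 5 without control #1.

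**Figure D3:**
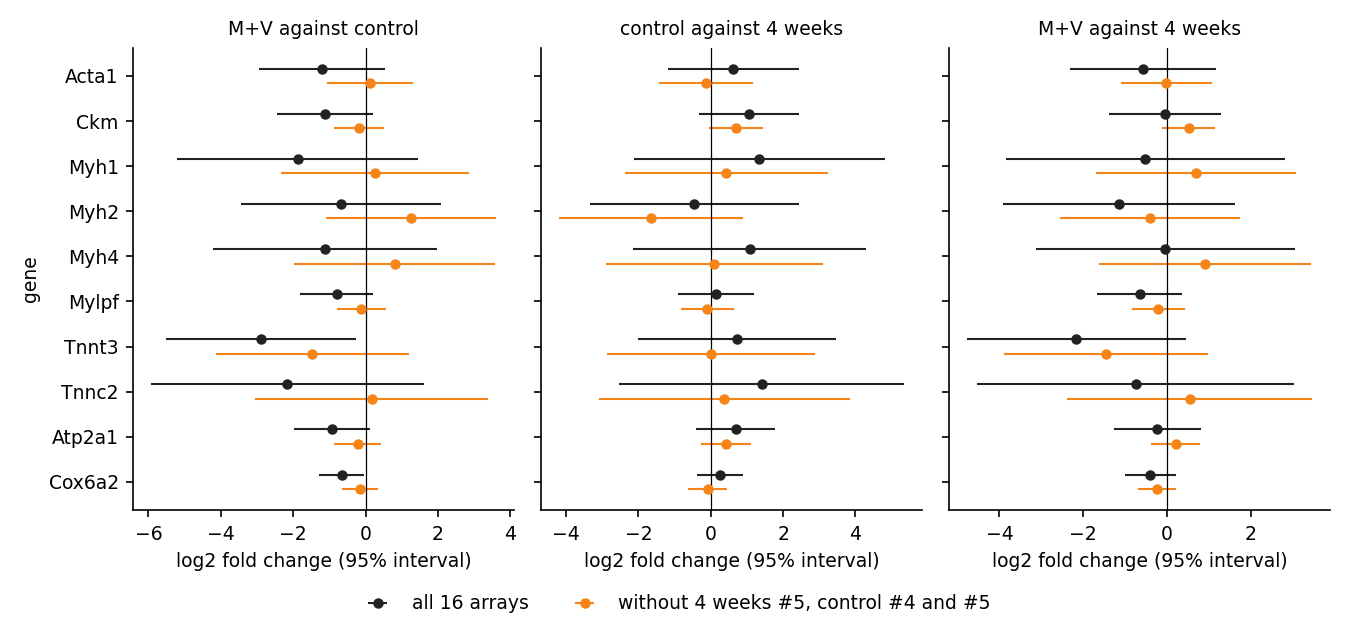
Points give the log2 fold change of each member (rows) in the 3 comparisons (panels) with the 95% interval from limma, over all 16 arrays in black and without 4 weeks #5, control #4 and control #5 in orange. In M+V against control all 10 black points lie below 0, and 5 of the orange points lie above it.

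Age was compared as control against 4 weeks, in which the control mice also carry 8 weeks of vehicle injections. The limma test called 0 of the 2 members that passed the filter, where it called 1.38% of the tested probe sets, and 0 of the other 8 in the fit without the filter, where it called 0.211%, and 0 of the 10 had an unadjusted p under 0.05. The median fold change of the members was 0.71, with 9 above 0 and Myh2 at -0.46, and it was 0.05 without the 3 high cochleae. None was past the study's cutoffs, but 2 were without 4 weeks #5 and 1 was without control #1. Tnnc2 had the largest difference, 1.41 with SE 1.84 (limma without the filter, adjusted p = 0.871).

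In M+V against 4 weeks, limma called 0 of the 2 members that passed the filter, where it called 5.28% of the tested probe sets, and 0 of the other 8 in the fit without the filter, where it called 0.704%, and 0 of the 10 had an unadjusted p under 0.05. The median was -0.55, all 10 members were below 0 and none was past the study's cutoffs. Leaving out 4 weeks #5 alone turned the median to 0.10, and 1 member was past the cutoffs without 4 weeks #2, M+V #4 or M+V #6. Tnnt3 stood at -2.17 with SE 1.22 (limma without the filter, adjusted p = 0.450), its 3 lowest arrays all being M+V cochleae. M+V against control and control against 4 weeks share the control arrays, so a high control cochlea moves both in opposite directions.

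Some other genes of fast fibres were highest in the same 3 cochleae and more were not. Of 16 listed, 6 had their 3 highest values there, namely Tnni2, Myl1, Mybpc2, Eno3, Myoz1 and Pgam2, and 10 did not. Of all 18183 genes that are no member, 0.198% had this pattern (36 genes), a description of these arrays. Tnni2, the inhibitory troponin of fast fibres, was 8.92, 8.96 and 8.90 in 4 weeks #5, control #4 and control #5 and at most 7.40 elsewhere. Myl1, an essential myosin light chain, was 10.74, 10.51 and 10.66 there and at most 9.45 elsewhere. Eno3, muscle enolase, was 9.46, 9.27 and 9.41 against at most 9.01. Pvalb, a calcium buffer of fast fibres that neurons also make, was 11.01 to 13.03 over all arrays and did not follow them. Neither did Ampd1, the AMP deaminase of muscle (1.54 to 7.59 over all arrays, 4.87 to 5.76 in the 3), Mylk2, a kinase of the myosin light chain (1.54 to 5.09), Cacna1s, the calcium channel of the T tubules (0.95 to 4.61), or Tmod4, a cap of the thin filament (6.95 to 8.03). The others that did not were Actn3, Pygm, Casq1, Ryr1 and Tpm1.

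Of 20 genes used by both fibre types, 7 had the same 3 highest arrays, among them Ttn, the giant spring of the sarcomere, at 9.12, 8.93 and 8.89 and at most 7.24 elsewhere. Ckmt2, the mitochondrial creatine kinase of muscle, was 9.05, 8.63 and 8.86 there, with M+V #4 next. The others were Neb, Myot, Actn2, Trdn and Klhl41. More of the 20 did not share these arrays, namely Des, Cav3, Ldb3, Tcap, Jph1, Smpx, Mybpc1, Cox7a1, Cox8b, Trim63, Fbxo32, Hspb7 and Tpm2. Des was 7.18, 7.13 and 7.46 in the 3 cochleae, within 6.71 to 7.68 over all arrays. Cox8b was 10.09, 10.41 and 10.42 there, within 9.82 to 11.12.

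Of 11 slow fibre genes, 1 did so, Mb, the oxygen store myoglobin that fast oxidative fibres also hold, at 9.87, 9.06 and 9.63 and at most 7.22 elsewhere. Myh7, the slow myosin heavy chain, ran only from 4.90 to 6.65, with 6.12, 5.95 and 5.70 in the 3 cochleae. Tnnt1 and Myl2, the slow troponin T and the slow light chain, ranged over 0.84 and 1.20 on the log2 scale. Other slow fibre genes varied more, with Myl3, Tnni1 and Csrp3 ranging over 5.25, 4.44 and 3.17, down to weak signals. Myl3 and Tnni1 were highest in 4 weeks #5 (6.56 and 5.33). In control #4 and control #5, Myl3 was 5.81 and 6.00, and Tnni1 was 2.70 and 1.66. None of the 10 myogenic factor and satellite cell genes, 10 embryonic and cardiac genes or 8 smooth muscle genes on the array had its 3 highest values in these cochleae. Actc1, cardiac actin, which developing skeletal muscle also makes, was 7.98 in 4 weeks #5 and 7.18 in control #4, with M+V #2 at 7.22 above control #5 (6.87).

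**Figure D4:**
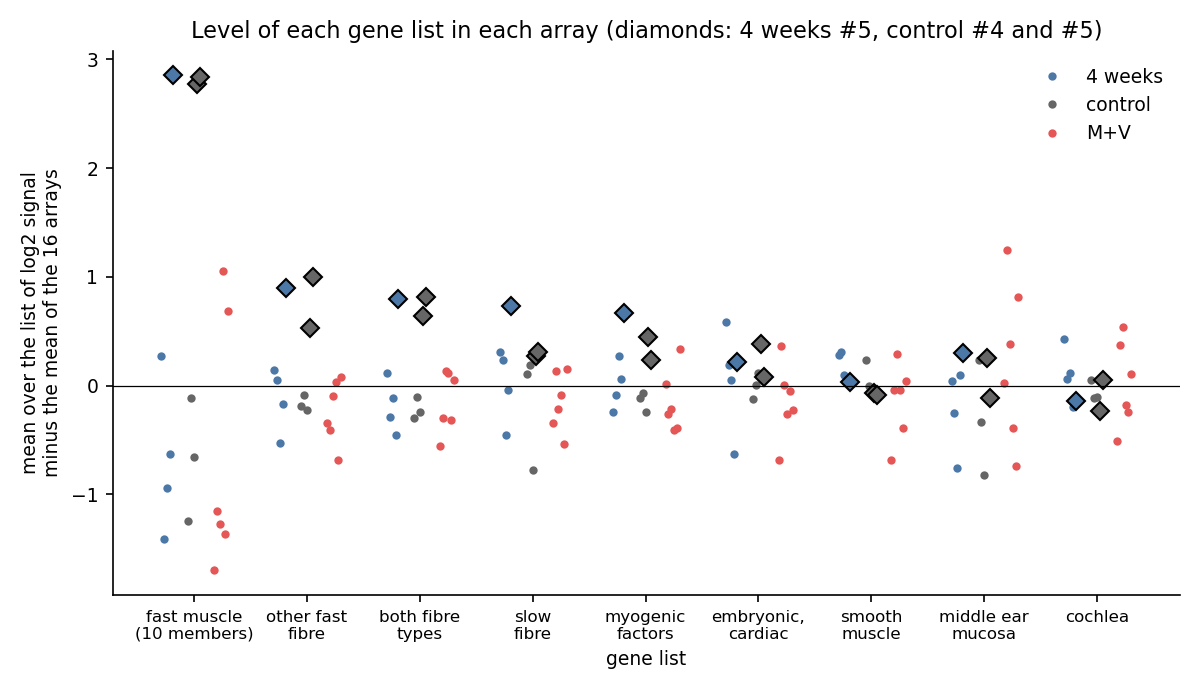
Each point is 1 cochlea, and its height is the mean over a gene list of the log2 signal minus the 16-array mean of each gene, for 9 lists, with colours for the groups and diamonds for 4 weeks #5, control #4 and control #5. The diamonds stand between 2.78 and 2.85 for the fast muscle members, and are also the 3 highest for other fast fibre and both fibre types. They are within the 4 highest for slow fibre, the 5 highest for myogenic factors and the 7 highest for embryonic and cardiac muscle. For smooth muscle, middle ear mucosa and cochlea they stand among the other points.

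In the tests of these lists, 5 of the 16 other fast fibre genes passed the filter. None of the 16 was called in M+V against control or control against 4 weeks, with or without the filter. In M+V against 4 weeks, 1 of the 5 was called lower, where 5.28% of the tested probe sets were called. This was Tpm1, a tropomyosin that many other cells also make (log2 fold change -0.35, limma adjusted p = 0.039). Without the filter, 0 of the 16 were called there, against 0.704% of all probe sets. Tpm1 was 11.63 to 11.85 at 4 weeks, 11.31 to 11.50 in control and 11.15 to 11.70 in M+V. Its control values too all lay below those at 4 weeks. The median fold changes of the 16 genes were -0.34 in M+V against control, -0.19 in M+V against 4 weeks and 0.14 in control against 4 weeks. The medians of the 11 slow fibre genes were -0.05, -0.05 and 0.10. Of these 11, 1 (Casq2) was called lower in M+V against 4 weeks in the fit without the filter.

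Genes were also ranked by the likeness of their pattern to the score over the 16 arrays, as Pearson's r with no test, since 3 arrays stand far from the rest. Among 11455 tested genes that are no member, the highest were Myl1 (0.89), Srl, sarcalumenin of the sarcoplasmic reticulum (0.85), Tcap, a titin-binding protein of the Z disc (0.78), and Eno3 (0.76). Below these came Mfn1, Hspd1, Dnajc7, Hrc, E130307A14Rik, Ruvbl2, St6gal1 and Psma2, from 0.74 down to 0.66. The lowest were Rab26os (-0.82), Zfp560 (-0.78) and Fra10ac1 (-0.74). When every gene was ranked with no filter, a choice made after seeing the data, Tnni2 (0.95), Ckmt2 (0.94) and Myhas (0.93) led 18183 genes and were the only ones over 0.9. The probe set of Myhas shares a record with a probe set of Myh1, a member, so its likeness is not independent of the score. By rank (Spearman's rho) these 3 were at 0.71, 0.77 and 0.71, and Myl1, Srl, Tcap and Eno3 were at 0.65, 0.77, 0.74 and 0.38.

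Measures of tissue and array quality were set beside the score. The 14 cochlear genes, such as Coch and Otos, secreted proteins of cochlear fibrocytes, averaged -0.14, -0.23 and 0.06 relative to their 16-array means in 4 weeks #5, control #4 and control #5, within a range of -0.51 to 0.54 over all arrays. Coch ran from 14.84 to 15.42 over the 16 cochleae. The 10 genes listed for middle ear mucosa averaged 0.30, 0.25 and -0.12 in the 3 arrays and -0.82 to 1.25 over all. The highest was M+V #2, whose muscle score was -1.15. The list held Ltf and Lyz2 too, which are not particular to the mucosa, and its genes did not move together. In 4 weeks #5, Ltf was at its lowest (12.63), while Foxj1 was 7.88, within 6.37 to 8.89, and Dynlrb2 was 10.95, within 8.62 to 12.21. Bpifa1, a secreted protein of airway and middle ear epithelium, was 14.21 to 15.12 in every cochlea. The difference between the 3' and 5' Gapdh control probe sets, a sign of RNA integrity, was -0.165 to 0.036 in the 3 arrays and -0.165 to 0.189 over all 16. The part of middle ear or neck muscle, or of any step of dissection, in the muscle signal was not tested.

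The arrays fell into 2 sets by the level of bioB, a control transcript added before hybridisation, at 8.91 to 9.62 in the high set and 5.73 to 6.08 in the low set. The high set held all 5 cochleae at 4 weeks, control #1 and M+V #1 and #2, and the low set held 4 control and 4 M+V cochleae, so that age and set are largely confounded. The 3 cochleae with the highest muscle scores lay in both sets. With the set as a block, the median fold change of the members was -0.99 in M+V against control, -1.22 in M+V against 4 weeks and -0.37 in control against 4 weeks, the last with its sign turned. Within the low set, which holds control #4 and #5, the median in M+V against control was -1.39, and within the high set, with 1 control array, it was -0.10.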

How the data were processed

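Total RNA of whole left cochleae was hybridised to 16 arrays, 1 per mouse. The authors made the signals with GCOS and MAS5 (versions not given in the sources used here), followed by quantile normalisation across arrays. The deposited values are log2 signals, running from -3.31 to 15.4 with a median of 6.90 in every array. Here, values below a signal of 1 (0.869%) were raised to 1. Of 45101 probe sets, 64 control probe sets were left out, and 21391 passed the filter, which required all arrays of some group to lie at or above their median. The 3 groups were fitted in 1 linear model (limma 3.58.1, R 4.3.3), two-sided, with Benjamini-Hochberg adjustment over all tested probe sets. Members that did not pass the filter are given from the same fit over 45037 probe sets. A gene was named by the array's probe annotation, in which 34945 probe sets have 1 symbol, 932 several and 9224 none, and reported from its brightest probe set. All 15 member probe sets matched RefSeq (GRCm38.p6) by gene identifier. The fit was tested on simulated data.

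The members and the lists were chosen with earlier results of these data known. The naming rule took all members, up to 4 genes per list by moderated t in M+V against control or by range, and the 12 highest and 3 lowest by likeness to the score. Not every gene it allowed is named, and genes named outside it (those sharing the 3 highest arrays or failing to, the defining slow fibre, cochlear and mucosal genes, called genes and Myhas) were picked once their values had been seen. The alternatives were filters at the 25th and 75th percentile and none, log2(signal + 32), cyclic loess, median centring of arrays, the methods' t-test, only the compared groups, array weights, blocks for replicate number and bioB set, each bioB set alone, other probe sets of a gene, and leaving out arrays. Lists of bone and central myelin genes were also read, and their scores are among the other observations.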

Additional observations from a re-analysis of the deposited data

How the results depend on the processing

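The call of 0 members past the adjusted threshold held in all 3 comparisons under every alternative run, including leaving out each array in turn and the methods' t-test. Of 940 values of single members under the alternatives, 60 had the opposite sign to the main value and 0 passed the test, with a lowest adjusted p of 0.136 (limma or the methods' t-test). The number of members past the study's cutoffs in M+V against control, 2 in the main analysis, was 1 with no filter, with the filter at the 75th percentile, with only the compared groups in the fit, with the bioB set as a block, with the mean over the probe sets of a gene and with the dimmest probe set. It was 0 on log2(signal + 32), by the methods' t-test, within the low bioB set and without 4 weeks #5, control #4 and control #5. When 1 array was left out, it was 0 to 5. It was 0 without control #4, control #5, M+V #1 or M+V #5, and 1 without M+V #2 or M+V #3. It was 4 without 4 weeks #5 and 5 without control #1. In M+V against 4 weeks, 0 in the main analysis, it was 2 with the bioB set as a block and 2 within the high set, and 0 to 1 when 1 array was left out, being 1 without 4 weeks #2, M+V #4 or M+V #6. In control against 4 weeks it was 0 to 2, with 2 without 4 weeks #5 and 1 without control #1. The median fold change in control against 4 weeks within the high bioB set was -1.30, with 1 control array, which was assumed to vary like the other groups. When 1 array was left out, the median ran from -1.60 to -0.67 in M+V against control, -0.89 to 0.10 in M+V against 4 weeks and 0.24 to 1.31 in control against 4 weeks. Without 4 weeks #5, control #4 and control #5, a choice made after seeing the data, the range of the muscle score fell to 2.75. On log2(signal + 32) it was 2.92, and the median SD within groups of the members was 0.959 in place of 1.78.

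The log2 fold changes of single members with a sign opposite to the main value were as follows. With array weights, they were Myh2 0.10 in M+V against control. With the bioB set as a block, they were Acta1 -0.58, Myh1 -1.06, Mylpf -0.10, Tnnt3 -1.65, Tnnc2 -1.09 and Cox6a2 -0.16 in control against 4 weeks. From the dimmest probe set of a gene, they were Myh1 0.45 in M+V against control, Myh1 0.44 in M+V against 4 weeks, Ckm -0.40, Myh1 -0.0073 and Myh4 -0.053 in control against 4 weeks. Within the high bioB set, they were Acta1 0.37, Myh1 0.47, Myh4 3.29 and Tnnc2 0.48 in M+V against control, Myh4 0.79 in M+V against 4 weeks, Acta1 -1.49, Ckm -0.34, Myh1 -2.36, Myh4 -2.50, Mylpf -0.36, Tnnt3 -1.17, Tnnc2 -2.58, Atp2a1 -0.074 and Cox6a2 -0.43 in control against 4 weeks. On log2(signal + 32), they were Myh2 0.043 in control against 4 weeks. Within the low bioB set, they were Myh2 0.18 in M+V against control. Without 4 weeks #5, control #4 and control #5, they were Acta1 0.12, Myh1 0.26, Myh2 1.26, Myh4 0.81 and Tnnc2 0.17 in M+V against control, Ckm 0.51, Myh1 0.69, Myh4 0.90, Tnnc2 0.54 and Atp2a1 0.21 in M+V against 4 weeks, Acta1 -0.13, Mylpf -0.095 and Cox6a2 -0.090 in control against 4 weeks. Over the fits that left out 1 array, the members that changed sign ran from low to high as Myh2 -1.43 to 0.11 in M+V against control, Ckm -0.29 to 0.51, Myh1 -1.11 to 0.69, Myh4 -0.99 to 0.90, Tnnc2 -1.46 to 0.54 and Atp2a1 -0.42 to 0.21 in M+V against 4 weeks, Myh2 -1.26 to 0.29 and Mylpf -0.13 to 0.59 in control against 4 weeks. The cause of these changes was not tested, other than that the fits without arrays rest on fewer samples.

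Deviations of same-numbered arrays of different groups from their group means correlated at a median r of 0.013 over 15 pairs, 6 of them over 0.1. Over 70 other pairs the median was -0.019, with 18 over 0.1. The labels do not say whether arrays of 1 number were handled together, and these values cannot decide it. With the replicate number as a block, 4 members were past the study's cutoffs in M+V against control and 1 in M+V against 4 weeks, and 0 members passed the adjusted test.

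Of the 10 members, 8 did not reach the array median in every array of any group. Their fold changes had wide 95% intervals, and the number of arrays limits the precision. Present calls were not used here.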

Other observations

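Genes of bone, the tissue that encloses the cochlea, had a mean level relative to their 16-array means of 0.70 in 4 weeks #5, within 0.60 to 0.70 in that group, and -0.32 and -0.47 in control #4 and control #5, against -0.15 to 0.03 in the other control cochleae. The same measure for central myelin genes was 0.11, -0.22 and 0.39 in the 3 arrays and ran from -1.21 to 0.58 over all 16.

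Casq2, the calcium store of slow and cardiac muscle, was the only gene of the slow fibre list called in any comparison in the fit without the filter. It was lower in M+V than at 4 weeks, with a log2 fold change of -0.88 (limma without the filter, adjusted p = 0.039). In that fit 0.704% of all probe sets were called. Casq2 did not pass the filter on low values. Casq2 was 6.34 to 7.23 at 4 weeks, 5.77 to 6.50 in control and 5.64 to 5.98 in M+V. In M+V against control its log2 fold change was -0.30 (limma without the filter, adjusted p = 0.737).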
